A study of Mus musculus with 2 samples.

Results

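A set of 9 genes that mark inhibitory neurons were followed in newborn mouse cortex: the homeobox factors Dlx1, Dlx2, Dlx5 and Dlx6, the factors Lhx6 and Sp8, and the GABA genes Gad1, Gad2 and Slc32a1. They were picked by name with earlier results of these data known, out of 18193 genes that the array annotation names, and every probe set assigned to exactly 1 of them was taken. That gave 15 probe sets for 9 genes. The measurements were Affymetrix array signals, which have no unit and are on a linear scale. A single array was hybridised per group, each with RNA pooled from the cortices of 3 mice.

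The control pool is labelled MRTFA-/-;MRTF-BFlox/Flox, that is Mrtfa-null with floxed Mrtfb and no Cre. The double knockout pool is labelled MRTF-A-/-;MRTF-BF/F;GFAP-Cre, the same alleles plus a Cre recombinase transgene named for the GFAP promoter. As labelled, both pools carry the Mrtfa deletion. The pools are called control and double knockout after these labels. Both are labelled as postnatal day 0, although the description of the double knockout sample says day 1. Neither group has a replicate array, so no p-value is given, and the spread between the pooled mice is hidden. The only error available is the SD over the probe sets of 1 gene, which holds none of the variation between animals.

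The targeted genes check these labels in part. Mrtfb was 1.36-fold lower in the double knockout pool on the brighter probe set, with a mean log2 difference of -0.33 ± 0.15 (SD, 2 probe sets). Mrtfa had a centred signal of 602.4 in the control pool and 262.1 in the double knockout pool, 2.30-fold lower on its only probe set, although the labels give it as null in both. The pools thus differ at a gene labelled alike, and every direction below is between pools as labelled. The sources used here do not say whether these probe sets lie inside the deleted segments.

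MRTF-A and MRTF-B are coactivators that carry signals from the actin cytoskeleton to the transcription factor SRF. Cortical GABA neurons are born outside the cortex, in the ganglionic eminences of the ventral forebrain, and migrate into it before and around birth. Dlx factors are made in those eminences and in the young neurons that leave them. Dlx1 and Dlx2 are known to act upstream of Dlx5 and Dlx6. Lhx6 marks neurons from the medial eminence, and Sp8 marks neurons from the caudal and dorsal lateral eminences, including those bound for the olfactory bulb. Gad1 and Gad2 encode the enzymes that make GABA from glutamate, and Slc32a1 encodes the transporter that loads it into synaptic vesicles.

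Dlx1 and Dlx2 read higher in the double knockout pool, while Dlx5 and Sp8 read lower and the GABA genes differed little. Dlx1 was 1.56-fold higher and Dlx2 1.21-fold higher. Dlx5 was 1.14-fold lower, and Sp8 at least 1.35-fold lower. The log2 differences of Gad1 and Slc32a1 were 0.02 and 0.01, and their sign turned to -0.01 for Gad1 and between -0.02 and -0.01 for Slc32a1 after quantile normalization or loess centring. Each gene is represented by its brightest probe set on average, after signals under a floor of 178.9 were set to that floor. Dlx6 stayed under the floor on both arrays, so 8 of the 9 genes were measured.

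**Figure D1:**
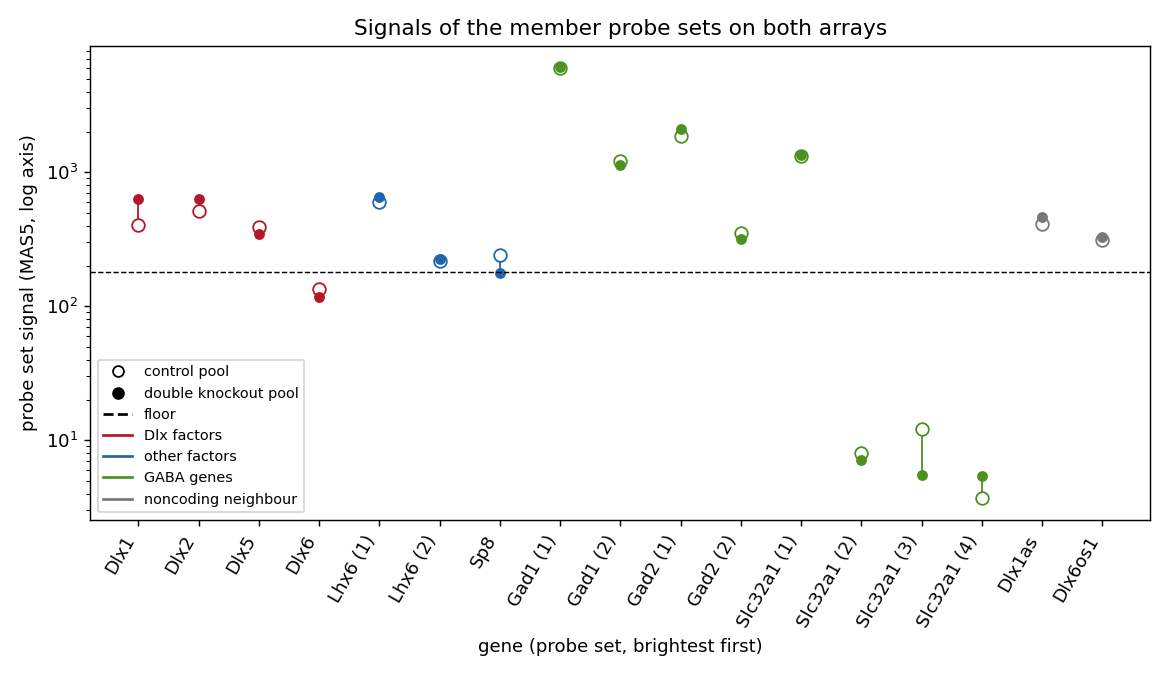
Deposited signals (log axis) of the 15 probe sets of the members and of the noncoding neighbours Dlx1as and Dlx6os1, with open circles for the control pool, filled circles for the double knockout pool and a dashed line at the floor of 178.9. Dlx1 goes from 402.9 to 631.6, while both circles nearly coincide for the first probe sets of Gad1 and Slc32a1.

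Dlx1 and Dlx2 lie next to each other on chromosome 2 with no protein-coding gene between them. Because they were the members at least 1.2-fold higher, the 250 bases before their annotated starts are shown, with Gad1, whose signal was nearly equal in the pools, beside them. The windows come from RefSeq on build GRCm38.p6, which holds 11 of them for 7 of the 9 genes. They span chr2:71529195-71529444 on the plus strand for Dlx1, chr2:71546755-71547004 on the minus strand for Dlx2, and chr2:70561879-70562128 on the plus strand for Gad1. The strands place Dlx1 and Dlx2 so that they are read towards each other. Capitals mark every match, on either strand, to TAATTA (a homeodomain core), GGGCGG (a GC box), CCAAT (a site of the factor NF-Y), TATAAA (the core promoter element), CACGTG (an E-box) or the CArG box, the site bound by SRF.
Dlx1: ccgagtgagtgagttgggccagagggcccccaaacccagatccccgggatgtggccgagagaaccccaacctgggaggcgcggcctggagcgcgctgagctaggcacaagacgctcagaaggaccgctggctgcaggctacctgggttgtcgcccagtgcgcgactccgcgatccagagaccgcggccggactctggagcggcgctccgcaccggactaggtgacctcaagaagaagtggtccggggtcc
Dlx2: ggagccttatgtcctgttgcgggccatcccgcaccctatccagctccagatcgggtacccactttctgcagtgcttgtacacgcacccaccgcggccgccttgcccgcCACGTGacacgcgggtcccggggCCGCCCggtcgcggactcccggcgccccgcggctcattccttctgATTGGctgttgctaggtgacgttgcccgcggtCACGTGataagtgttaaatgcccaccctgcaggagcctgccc
Gad1: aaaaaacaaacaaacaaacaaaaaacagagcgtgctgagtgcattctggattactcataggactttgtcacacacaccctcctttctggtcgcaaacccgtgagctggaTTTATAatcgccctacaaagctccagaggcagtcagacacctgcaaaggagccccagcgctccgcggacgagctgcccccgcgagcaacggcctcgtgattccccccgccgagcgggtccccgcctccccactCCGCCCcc

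The Dlx1 window held no match to any of these motifs, and the Dlx2 window held 2 matches to CACGTG, 1 to GGGCGG and 1 to CCAAT, the last 2 on the opposite strand. The Gad1 window held 1 match to TATAAA and 1 to GGGCGG, both on the opposite strand. No marked match overlaps another. Of 32851 RefSeq windows of this length, 6.02% held CACGTG, 32.7% GGGCGG, 33.8% CCAAT, 12.4% TATAAA, 4.84% TAATTA and 1.47% a CArG box. No CArG box was found in any of the 11 windows of the members, and TAATTA was found in 1, a window of Sp8. The share of G and C was 68.0% in the Dlx1 window, 66.4% in the Dlx2 window and 58.0% in the Gad1 window, against a median of 52.4% over all windows. These matches describe letters in short windows and say nothing of which factors bind there.

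Among the Dlx factors, Dlx1 showed the widest gap. Its only probe set read 402.9 in the control pool and 631.6 in the double knockout pool, a log2 difference of 0.64. The double knockout array is the higher one. Of 11636 measured genes, 27 had a larger positive difference, and 43 (0.37%) were at least 1.5-fold higher. Within genes of a mean signal of 250 to 1000, where Dlx1 lies, 0.482% passed the same mark. Dlx1 was the one member past 1.5-fold in either direction. It fell short of that mark at 0.48 with a pseudocount equal to the floor, and at 0.08 under a floor at the 75th percentile. The 0.08 is a lower bound, because that floor, 595.9, replaced the control signal. These values are among those on which the genes were chosen, so nothing is read from the comparison with all genes.

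Dlx2 read 518.9 in the control pool and 627.9 in the double knockout pool, again higher on the latter array. Its log2 difference was 0.27, and 610 genes had a larger one. At 1.2-fold higher, the mark that Dlx1 and Dlx2 alone of the 8 measured members passed, the share of all measured genes was 5.61%, and it was 7.08% at signals of 250 to 1000. With a pseudocount equal to the floor Dlx2 fell short of it at 0.21. A 75th percentile floor, which replaced the control signals of both, left Dlx1 at 0.08 and Dlx2 at 0.07 as lower bounds. The noncoding RNA Dlx1as, which lies between the pair and overlaps Dlx1, read 408.6 and 461.1, a log2 difference of 0.17. The sources used here do not say which strand each probe set reads, so signal from Dlx1 and its antisense partner cannot be told apart.

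The coding genes flanking the pair differed by -0.03 to 0.17 log2. They were taken by gene order, after the values of the pair were known. Metap1d, an aminopeptidase next to Dlx1, read 220.7 and 248.7, a log2 difference of 0.17. Itga6, an integrin subunit next to Dlx2, read 488.9 and 479.5, a difference of -0.03. Hat1 and Pdk1, one gene further out on each side, differed by 0.05 and 0.01.

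Dlx5 and Dlx6, the pair on chromosome 6, read lower or were too dim to measure. Dlx5 read 393.4 in the control pool and 344.6 in the double knockout pool, a log2 difference of -0.19 that 10056 measured genes exceeded. Dlx6 read 135.6 and 118.0, under the floor on both arrays, and no difference is given for it. Dlx6os1, a noncoding RNA transcribed beside them and also called Evf2, read 310.0 and 330.8, a difference of 0.09 in the other direction. The probe set of Dlx5 carries a suffix for possible matches to several transcripts of the gene.

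**Figure D2:**
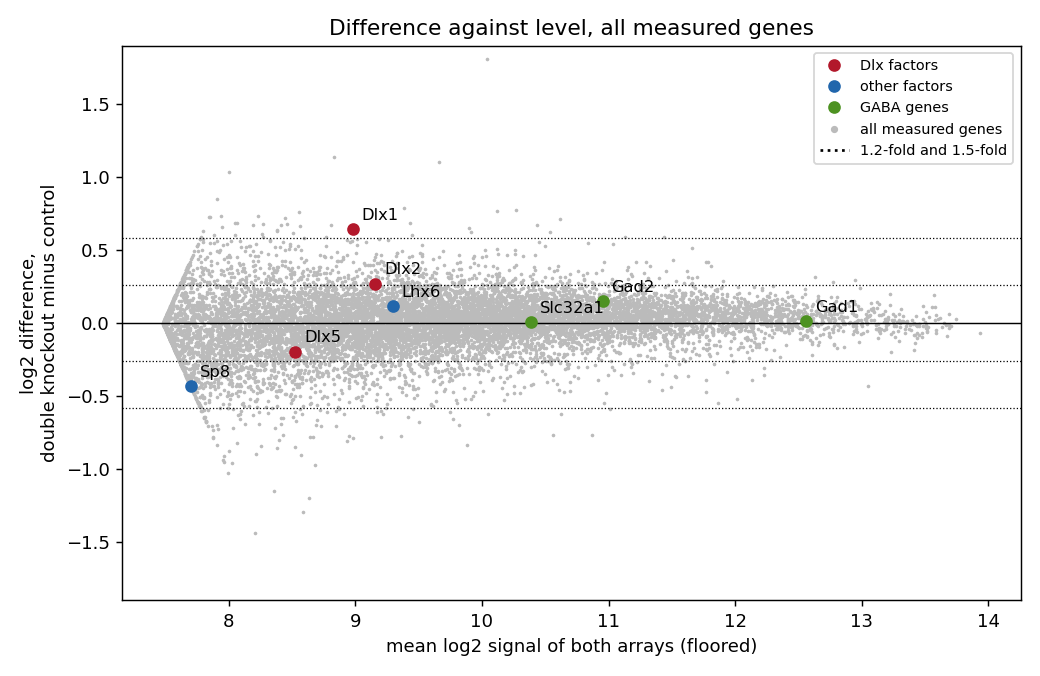
Log2 difference (double knockout minus control) against mean log2 signal for all 11636 measured genes in grey, with the 8 measured members coloured by group and dotted lines at 1.2-fold and 1.5-fold. Dlx1 at 0.64 lies above the upper line, Dlx2 at 0.27 sits at the inner line, and Gad1 and Slc32a1 lie on the zero line.

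The Dlx factors thus went both ways, and their median depended on whether Dlx6 was counted. Over the 3 measured factors the median log2 difference was 0.27, against 0.01 over all measured genes. With no floor, which lets in the dim signals of Dlx6, it was 0.04 over all 4. The Dlx median lay above that of the other 5 members by 0.26 with 3 factors, and by 0.02 with 4 and no floor.

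Lhx6 and Sp8, the remaining factors, differed in opposite directions. Lhx6 read 601.8 in the control pool and 655.6 in the double knockout pool on one probe set, and 218.0 and 224.3 on the other. Both probe sets were slightly higher on the double knockout array, with a mean log2 difference of 0.08 ± 0.06 (SD, 2 probe sets). Sp8 read 241.2 and 177.5 on its only probe set, the second value lying just under the floor. With the floor in place of that value the log2 difference was -0.43, a bound, and with a pseudocount equal to the floor it was -0.24. Of all measured genes 8.38% were at least 1.2-fold lower, but nothing is read from that share. Sp8 was measured through the control array alone, so under this floor it could only read lower.

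The GABA synthesis and transport genes were nearly level between the pools. Gad1 read 5986.7 and 6065.1 on one probe set, and 1221.2 and 1127.3 on the other. The probe sets thus went in opposite directions, with a mean log2 difference of -0.05 ± 0.09 (SD, 2 probe sets). Gad2 read 1879.4 and 2089.8 on one probe set, higher in the double knockout pool, and 355.3 and 319.9 on the other, lower there. Their mean was 0.00 ± 0.22 (SD, 2 probe sets). Slc32a1 read 1334.9 and 1344.6 on the 1 probe set of 4 that reached the floor. The median over the 3 GABA genes was 0.02, or -0.01 under either quantile normalization or loess centring.

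In all, 6 of the 8 measured members read higher in the double knockout pool, against 52.9% of all measured genes, and their median was 0.07. The count was 4 of 8 under loess centring, under quantile normalization or when a gene's probe sets were averaged. The shares of all measured genes that read higher were then 51.4%, 53.3% and 48.3%, in that order. No difference of the GABA genes reached 1.2-fold in either direction.

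How far 1 probe set can be trusted was gauged from genes that have several. Of 4858 genes with 2 or more probe sets that reached the floor on both arrays, 2765 (56.9%) had probe sets in both directions, as Gad1 and Gad2 did. The pooled SD between probe sets of a gene was 0.181 log2, and 0.197 for genes with a mean signal of 250 to 1000. These SDs hold no variation between animals, and the members were chosen with their values known, so no member is tested against them. Of the 9 such genes whose brightest probe set was at least 1.5-fold higher, the other probe sets were higher on average for 6, at least 1.2-fold higher for 3 and at least 1.5-fold higher for 1. Of the 221 whose brightest probe set was at least 1.2-fold higher, the mark that Dlx2 passed, the other probe sets were higher on average for 120 and at least 1.2-fold higher for 23. Dlx1, Dlx2, Dlx5, Dlx6 and Sp8 each had 1 probe set, so no such comparison exists for them. Of all measured genes 36.5% had 1.

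**Figure D3:**
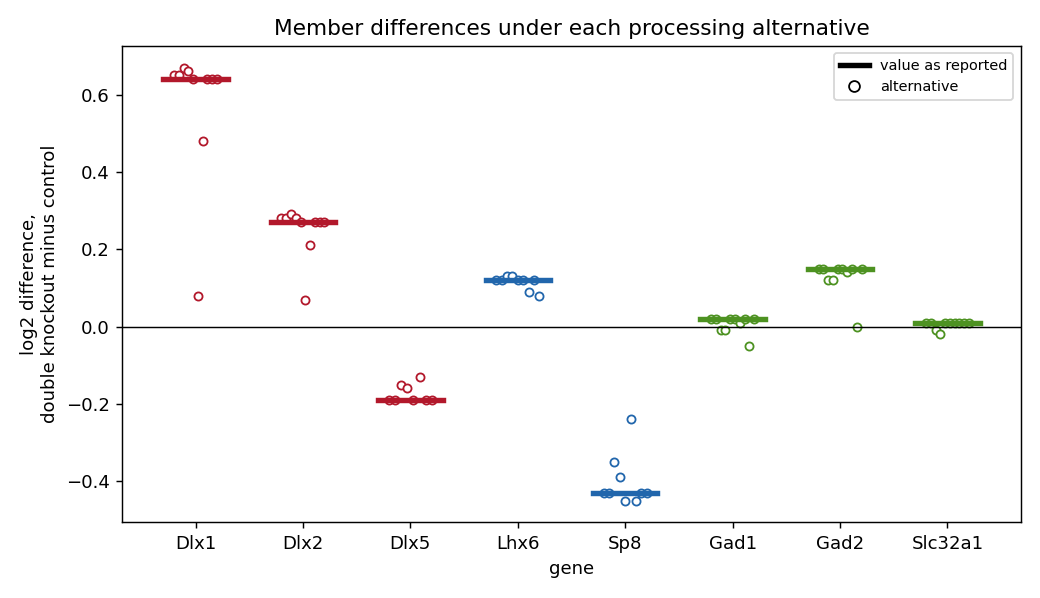
Log2 difference of each measured member as reported (thick line) and under each of the processing alternatives that gave it a value (open circles). Dlx1 and Dlx2 stay above 0 and Dlx5 and Sp8 below 0, which only the scaling alternatives could have changed. Gad1 and Slc32a1 lie on both sides of 0. The low circles of Dlx1 and Dlx2, at 0.08 and 0.07, belong to a floor at the 75th percentile and are lower bounds.

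On the brightest probe sets, the widest difference among other factors of the interneuron lineage lay between those of Dlx2 and Dlx1. Of 24 listed, 10 were measured, 7 higher and 3 lower, against 52.9% higher over all genes. The median of these 10 was 0.05, against 0.01 over all genes. With probe sets averaged, 9 of 10 were higher and the median was 0.08, against 48.3% higher and a median of -0.01 over all genes. Maf, a factor of neurons from the medial eminence, read 1292.9 and 1685.1, a log2 difference of 0.38, and was the one past 1.2-fold on its brightest probe set. Over its 5 probe sets the mean was 0.14 ± 0.18 (SD). Nr2f1 and Zeb2 differed by 0.14 each and Satb1 by -0.12, although the probe sets of Satb1 had a mean of 0.03 ± 0.15 (SD, 3 probe sets).

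Several early factors of the eminences were under the floor on both arrays. Gsx2 read 126.4 and 97.8, Nkx2-1 read 106.5 and 72.5, and Lhx8 read 123.1 and 62.5. Gsx1, Npas1, Prox1, Dlx3, Dlx4 and Gbx2 were under it as well.

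Genes of interneuron migration and subtypes were measured for 17 of 20, with 9 higher and 8 lower, against 52.9% higher over all measured genes. The median of the list was 0.03, or -0.01 when probe sets were averaged. Reln, the secreted glycoprotein reelin, read 3455.6 and 4233.6, a difference of 0.29, and was the one past 1.2-fold on its brightest probe set. Cxcl12, a chemokine that guides migrating interneurons, differed by 0.24, or by 0.10 ± 0.20 (SD) when its 2 probe sets were averaged. Npy, a neuropeptide, and Kit, a receptor kinase, differed by -0.22 and -0.26, and the mean for Kit was -0.46 ± 0.28 (SD, 2 probe sets). Erbb4, a receptor of migrating interneurons, read 17.3 and 15.6, under the floor, as did Nrg1 and Pvalb.

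A list for GABA handling and release, which also holds genes of precursor and cofactor supply and of receptors, had a median of 0.01. Of its 12 genes 9 were measured, with 5 higher and 4 lower, or 4 higher after quantile normalization or loess centring. The shares higher over all measured genes were 52.9%, and 53.3% or 51.4% under those scalings, in that order. The median of the list was -0.07 when probe sets were averaged. Slc6a11, a GABA transporter of astrocytes, read 2380.7 and 1710.1, a difference of -0.48. Pdxk, which makes the pyridoxal phosphate that the glutamate decarboxylases need, read 2479.9 and 1943.0, a difference of -0.36. Slc1a1, a glutamate transporter, differed by -0.24 and Slc38a1, a glutamine transporter, by 0.12. Slc6a13, a GABA transporter also made by meningeal cells, was chosen after its values were seen: it read 157.3, under the floor, and 267.0, at least 1.49-fold higher. Abat, which breaks GABA down and was also chosen after its values were seen, differed by -0.02.

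**Figure D4:**
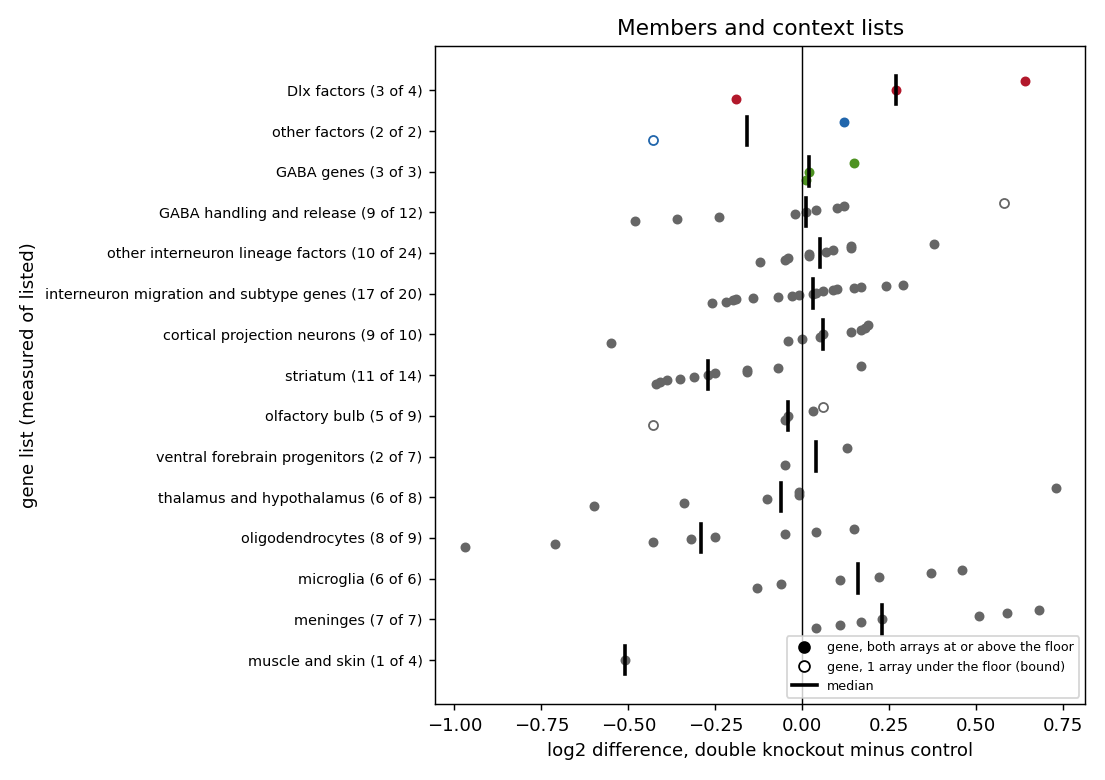
Log2 difference (double knockout minus control) of each measured gene in the member groups and the context lists, with the median as a black bar and open circles where 1 array was under the floor. The interneuron lists centre near 0, with medians of 0.05 and 0.03, while striatum and oligodendrocytes lie lower at -0.27 and -0.29 and meninges higher at 0.23.

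Markers of other tissue differed between the same pools. The striatum lies beneath the cortex, and its GABA neurons also make Gad1, Gad2 and Dlx factors. Of its 11 measured markers 10 were lower in the double knockout pool and 1 higher, against 52.9% higher over all measured genes. The median of the markers was -0.27, against 0.01 over all measured genes. The summed signal of the markers was 17180 in the control pool and 15660 in the double knockout pool. Drd2 and Six3 read 434.7 and 375.7 in the control pool and 325.8 and 282.9 in the other. The 5 measured olfactory bulb genes, Sp8 among them, had a median of -0.04, or 0.03 when probe sets were averaged, and Th, Tbx21 and Doc2g were under the floor on both arrays. The part of these tissues in the member values was not tested. In bulk RNA, fewer cells of a type and less RNA per cell cannot be told apart.

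Markers of cortical projection neurons were measured for 9 of 10 genes, with a median of 0.06. The summed signal of these markers was 18780 and 18350. They cannot show that the tissue was cortex alone, and the sample titles say brain. Slc17a7, the vesicular glutamate transporter, read 4497.8 and 3079.7, a difference of -0.55, and Slc17a6 differed by 0.19. Over all measured genes the median was 0.01, and 52.9% were higher. Oligodendrocyte genes had a median of -0.29 over 8 genes, 6 lower and 2 higher. The median was 0.16 over 6 genes of microglia, 4 higher and 2 lower, and 0.23 over 7 of meninges, all higher. The widest difference in these lists was -0.97 for Mobp, 0.46 for C1qc and 0.68 for Aldh1a2, in the same order. The median was -0.06 over 6 genes of thalamus and hypothalamus, but single genes differed widely. Pomc alone was higher, at 0.73, and 5 were lower, with Tcf7l2 at -0.60 and Hcrt at -0.34. The median was 0.04 over 2 genes of ventral forebrain progenitors, and Ckm was the one muscle and skin gene measured, at -0.51.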

How the data were processed

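The authors deposited 1 intensity signal per probe set and array on a linear scale, computed by MAS5 according to the submitters' processing notes. For its version and target scaling the sources used here give nothing. The table holds 45101 probe sets, 64 of them array controls. Probe sets were named from platform annotation, and 34945 name exactly 1 gene. Signals were centred on the median log2 difference of probe sets bright on both arrays (a shift of 0.0037) and then floored at 178.9, the 50th percentile of non-control signals. The floor is not a detection call. A gene was measured when 1 array reached the floor. Where 1 array did not, the fold is a lower bound. All differences are double knockout minus control.

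The genes, context lists and thresholds of 1.2-fold and 1.5-fold were chosen with earlier results of these data known. Named genes were the members, their noncoding neighbours, the targeted genes and genes from among the up to 4 of a list with the largest difference on both arrays. Not all of the latter are named. Others are said to be taken by gene order or chosen later, or are listed as under the floor. The arrays' number, 1 per group, limits the precision. The scaling steps were tested on simulated data in which only probe sets brighter than those of the Dlx factors, Lhx6 and Sp8 were changed. That test does not cover signals as dim as theirs. Python 3.11.15, numpy 2.4.6, pandas 2.3.3, statsmodels 0.14.6 and matplotlib 3.10.9 were used. The alternatives covered scaling, floor, pseudocount and choice of probe set.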

Additional observations from a re-analysis of the deposited data

How the results depend on the processing

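Of the 10 alternatives, none turned the direction of Dlx1, Dlx2, Dlx5, Lhx6 or Sp8 where they gave a value. Changes of floor or pseudocount cannot turn the sign of a probe set. Dlx1, Dlx2, Dlx5 and Sp8 have 1 probe set each, so for them only the scaling alternatives could have done so. The ranges were 0.08 to 0.67 for Dlx1, 0.07 to 0.29 for Dlx2, -0.19 to -0.13 for Dlx5, 0.08 to 0.13 for Lhx6 and -0.45 to -0.24 for Sp8. The low ends for Dlx1 and Dlx2 are lower bounds, set by the floor at the 75th percentile. Gad1, Gad2 and Slc32a1 stayed within -0.05 to 0.15. The median of the Dlx factors was 0.04 with a floor at the 25th percentile and without a floor, and 0.06 with a pseudocount equal to the floor, settings that add Dlx6. It was 0.08 with a floor of 595.9 at the 75th percentile, which the control signals of Dlx1 and Dlx2 do not reach. Without probe sets whose suffix marks possible matches to several transcripts it was 0.46, because Dlx5 drops out. The gap between the Dlx median and that of the other members was 0.02, 0.02, 0.05, 0.01 and 0.45 in the same order. For Lhx6 and Sp8 the median came to 0.12 under the 75th percentile floor, where Sp8 drops out, and -0.43 without the suffixed probe sets, where Lhx6 drops out. The count of members at least 1.2-fold higher was 0 under that floor and 1 with the pseudocount. No paired analysis was possible because each group has 1 array, and for the same reason no replicate could be left out.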

Other observations

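The 3 dimmer probe sets assigned to Slc32a1 read between 3.7 and 12.2 on both arrays, while the brightest read 1334.9 and 1344.6, so they add no value for this gene. Sdhaf3, the protein-coding gene next to Dlx5 on the side away from Dlx6, read 453.3 in the control pool and 297.3 in the double knockout pool, a log2 difference of -0.61, and was chosen after its values were seen. On the other side of the pair Sem1 differed by -0.03.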
